A study of Mus musculus with 6 samples.

Results

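The 10 genes described here encode receptors for inflammatory mediators: the prostanoid receptors Ptger1, Ptger2, Ptger3, Ptger4, Ptgir and Ptgdr, the bradykinin receptors Bdkrb1 and Bdkrb2, the histamine receptor Hrh1 and the protease-activated receptor F2rl1. They were chosen by symbol from the 41388 genes listed in each library, and each matched 1 Ensembl gene. RNA was sequenced from sorted neurons of mouse dorsal root ganglia, in 3 libraries from female and 3 from male C57BL/6 embryos at 18.5 days post coitum. All 6 carried the RetFloxedEGFP allele and a Cre driver at the Scn10a (Nav1.8) locus, so that EGFP, a green fluorescent protein used for the sort, marks Ret-expressing neurons in which Cre had acted. The genotype label of male C is shortened and names no Cre allele, although its title does. The labels do not say how many copies of either allele the embryos carried. Ganglia came from spinal levels T11 to S1. Each female library and male A pooled cells of 2 embryos, male B pooled cells of 3 embryos, and male C came from 1 embryo. No other sorted fraction was analysed here, so the values are levels within 1 population and a comparison of its sexes.

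All 10 receptors couple to heterotrimeric G proteins, and they are studied in sensory neurons because their ligands are released in injured or inflamed tissue. Prostaglandins are made from arachidonic acid by cyclooxygenases and terminal synthases, bradykinin is cut from kininogen by kallikreins, histamine is released by mast cells, and protease-activated receptors are switched on by a cut in their own outer end. In nociceptors, signals through Gs raise cyclic AMP and protein kinase A activity, signals through Gq act by phospholipase C and protein kinase C, and signals through Gi lower cyclic AMP. The Gs and Gq pathways are known to make channels such as Trpv1 and Nav1.8 open more readily.

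The prostacyclin receptor gene Ptgir was the most abundant of the 10 in each of the 6 libraries. Ptger3 differed most between libraries, and Ptger2 had the lowest mean RPKM of the receptors that had reads. To show what lies at the start of these 3 genes, the window from 250 bases before to 50 bases after the annotated start is given for each, from RefSeq on build GRCm38.p6, in lower case with CpG dinucleotides in capitals. They lie at chr7:16906240-16906539 (Ptgir, + strand), chr3:157566626-157566925 (Ptger3, + strand) and chr14:44987861-44988160 (Ptger2, + strand).
Ptgir: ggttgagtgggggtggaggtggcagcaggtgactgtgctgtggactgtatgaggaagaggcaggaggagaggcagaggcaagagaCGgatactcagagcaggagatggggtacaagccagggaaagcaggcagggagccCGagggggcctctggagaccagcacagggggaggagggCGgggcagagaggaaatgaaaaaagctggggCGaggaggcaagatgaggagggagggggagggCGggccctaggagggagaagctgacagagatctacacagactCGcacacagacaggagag
Ptger3: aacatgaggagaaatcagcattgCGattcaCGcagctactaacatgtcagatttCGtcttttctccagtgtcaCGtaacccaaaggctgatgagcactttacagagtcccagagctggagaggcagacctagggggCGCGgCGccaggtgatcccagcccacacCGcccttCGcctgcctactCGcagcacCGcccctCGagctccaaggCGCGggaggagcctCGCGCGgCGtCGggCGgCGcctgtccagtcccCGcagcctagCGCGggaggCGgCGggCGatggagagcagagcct
Ptger2: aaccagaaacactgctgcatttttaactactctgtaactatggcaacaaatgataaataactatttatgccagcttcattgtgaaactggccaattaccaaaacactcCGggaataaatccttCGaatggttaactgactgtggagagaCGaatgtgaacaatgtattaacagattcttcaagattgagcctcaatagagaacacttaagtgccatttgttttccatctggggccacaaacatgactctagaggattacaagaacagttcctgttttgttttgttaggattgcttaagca
The windows held 6 CpG dinucleotides for Ptgir, 27 for Ptger3 and 3 for Ptger2, and the median over 32851 windows of this length was 7. Of all windows, 43.6% held fewer than Ptgir, 84.5% fewer than Ptger3 and 23.3% fewer than Ptger2. RefSeq windows were found for 7 of the 10 genes, 10 windows in all because Hrh1 had more than 1. None of these 7 held the letters TGACGTCA (the cyclic AMP response element, in 1.79% of all windows) or its shorter form TGACG (in 20.8%) on either strand. The letters TGANTCA (the AP-1 element, in 7.81% of all windows) were found for 1 of the 7, in a window of Hrh1. These counts are by gene and the shares by window, so they are not directly comparable.

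Libraries held between 15693013 and 24033601 counted reads. Levels are given as RPKM, reads divided by the deposited gene length in kilobases and by the TMM-normalised library size. Female C and male B resembled each other more than any other pair did, with a chi-square per gene of 7.43 between their counts, against 20.65 to 74.65 for the other pairs. These libraries also had the highest summed level of 8 immediate early genes, transcription factors and others that respond quickly to stimulation. That sum was 119.7, 118.9 and 403.3 RPKM in females A to C and 51.7, 382.7 and 255.0 RPKM in males A to C. The list of nociceptor genes includes Ret and Scn10a, whose presence was to be expected from the sort itself. Defining nociceptor genes were present in each library, with 14 of 14 at a mean of 1 RPKM or more and a sum of 1754 to 2087 RPKM in female and 2105 to 2356 RPKM in male libraries. Glial genes were present too, with 11 of 12 at that level and a sum of 897.5 to 1018 RPKM in female and 993.4 to 1080 RPKM in male libraries. The sum of 6 blood cell genes was 49.3 to 223.1 RPKM in female and 41.4 to 1257 RPKM in male libraries, with male A highest. Sums of fibroblast genes (152.5 to 175.2 RPKM in female and 149.7 to 171.6 RPKM in male libraries), endothelial genes (14.97 to 18.53 and 13.97 to 20.59 RPKM) and large-diameter neuron genes (76.3 to 93.5 and 70.8 to 95.3 RPKM) overlapped between the sexes. In bulk samples of this kind, fewer cells of a type and less RNA per cell cannot be told apart.

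Ptgir (ENSMUSG00000043017, chromosome 7, 16906490 to 16910905, 2 exon blocks) encodes the receptor for prostacyclin, which couples mainly to Gs. It stood at 13.8, 16.8 and 13.9 RPKM in females A to C and at 13.9, 11.4 and 19.0 RPKM in males A to C, from 732 to 1366 reads a library. The lowest and the highest value were both male, and the sexes overlapped. Its mean was 14.8 ± 2.66 RPKM (SD, n = 6), above 86.4% of all genes that had a read. Ptgir made up 64.5 ± 7.01% of the summed RPKM of the 10 receptors (SD, n = 6). Relative to the sum of the 4 genes Ptger1 to Ptger4, Ptgir was higher in each library, by a ratio between 2.03 in male B and 7.44 in female A. The coefficient of variation of Ptgir over libraries was 18.0%, where counting error alone would give about 3.20%. By the root mean square difference of centred log2 CPM over the 6 libraries, the genes with the pattern closest to Ptgir were Gm14634 (0.06), Ift172 (0.06) and 1600002K03Rik (0.07), which says nothing of shared function with so few libraries.

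Ptgdr (ENSMUSG00000071489, chromosome 14, 44851235 to 44859375) encodes the DP1 receptor for prostaglandin D2, also coupled mainly to Gs. It stood at 2.07, 2.99 and 1.62 RPKM in females A to C and at 1.96, 2.36 and 2.34 RPKM in males A to C, with a mean of 2.22 ± 0.464 RPKM (SD, n = 6). Female libraries held both the highest and the lowest value. The DP1 gene has an antisense neighbour, Gm16976, over 22.1% of its deposited exon length. The labels name a SMARTer Ultra Low Input kit, which does not mark strand, so reads of the overlap cannot be told apart.

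Ptger2 (ENSMUSG00000037759, chromosome 14, 44988195 to 45003820) lies 129 kb from Ptgdr on the same chromosome and encodes the EP2 receptor for prostaglandin E2. It had 4, 16 and 12 reads in females A to C and 18, 28 and 9 reads in males A to C. Its level was 0.0684, 0.178 and 0.137 RPKM in females A to C and 0.223, 0.317 and 0.164 RPKM in males A to C. Male B was highest and female A lowest, and the sexes overlapped. Over all libraries together the level was 0.189 RPKM (95% exact Poisson interval 0.151 to 0.233, counting error only). Ptgdr exceeded Ptger2 in each library, by a ratio between 7.43 in male B and 30.3 in female A.

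Ptger4 (ENSMUSG00000039942, chromosome 15, 5206661 to 5244187), which encodes the other Gs-coupled prostaglandin E2 receptor, EP4, had 28, 41 and 74 reads in females A to C and 62, 90 and 15 reads in males A to C. Its level was 0.265, 0.252 and 0.467 RPKM in females A to C and 0.426, 0.565 and 0.152 RPKM in males A to C, a mean of 0.354 ± 0.156 RPKM (SD, n = 6). The single-embryo library, male C, was lowest and male B highest, a ratio of 3.72. The deposited length of 6648 bases is longer than the 3327 bases of coding transcripts in the GENCODE M21 basic annotation. With the shorter length the mean would be 0.708 RPKM, still below Ptger1 and above Hrh1. The counts were left unchanged, so any reads outside the coding transcripts remain in that value. On the opposite strand Gm15937 covers 15.3% of the deposited exon length at 0.00908 RPKM, and Ttc33 covers 1.23% at 36.3 RPKM. As for Ptgdr, reads of these overlaps cannot be told apart, so part of the Ptger4 count may belong to these genes.

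Ptger3 (ENSMUSG00000040016, chromosome 3, 157566892 to 157644758, 4 exon blocks) encodes EP3, the prostaglandin E2 receptor that couples mainly to Gi. It had 20, 48 and 166 reads in females A to C and 40, 155 and 57 reads in males A to C. Its level was 0.598, 0.932 and 3.30 RPKM in females A to C and 0.867, 3.07 and 1.82 RPKM in males A to C. Female C and male B were highest, male C lay between, and the 3 other libraries lay below 1 RPKM, so that both sexes held high and low libraries. The highest library exceeded the lowest by a ratio of 5.53. The coefficient of variation was 66.7%, where counting error alone would give about 14.5%. Its biological coefficient of variation in the edgeR fit, 0.527, was above that of 98% of the genes tested. The deposited length of 2107 bases is shorter than the 3237 bases of coding transcripts in GENCODE M21, and with the longer length the mean would be 1.15 RPKM. Reads in the added bases were not counted, so that value leaves them out.

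**Figure D1:**
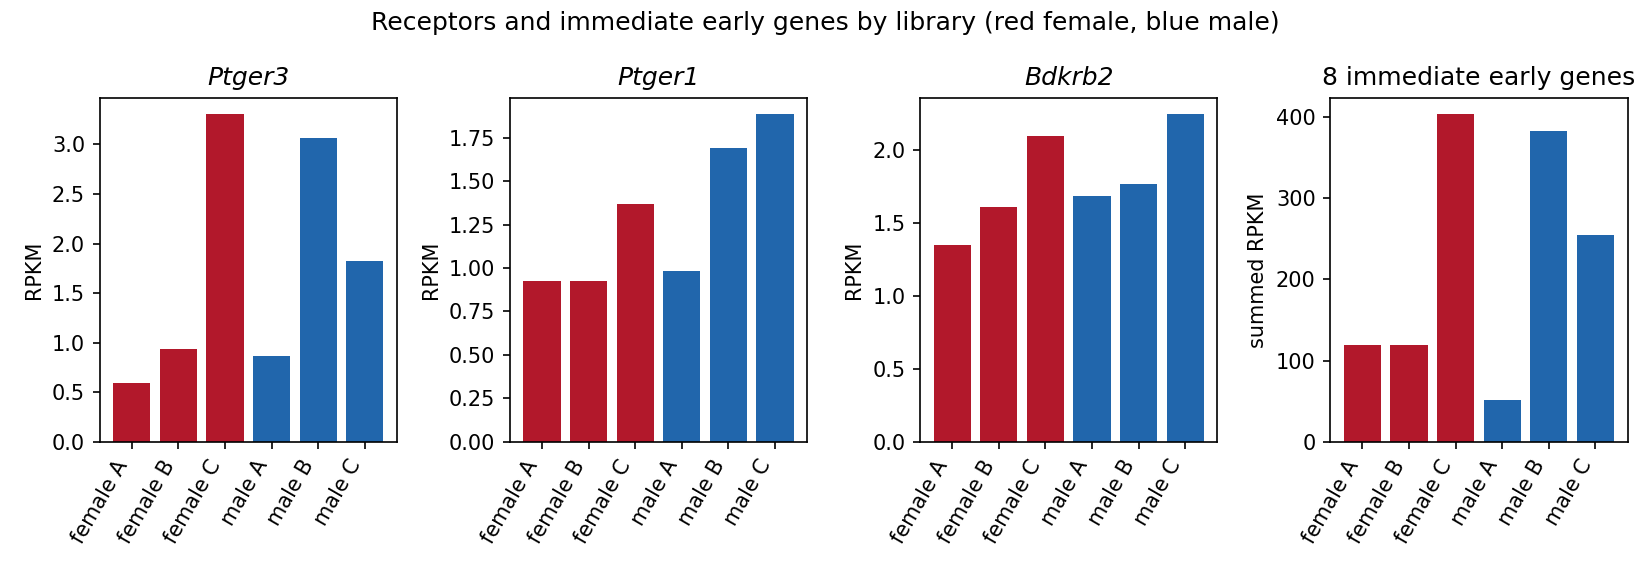
RPKM of Ptger3, Ptger1 and Bdkrb2 and the summed RPKM of 8 immediate early genes in each library (bars, vertical axes from 0, red female and blue male). In each of the 4 panels female C, male B and male C are the 3 highest bars, with Ptger3 at 3.30, 3.07 and 1.82 RPKM there. In male C, Fos made up 204.9 of the 255.0 RPKM of the immediate early genes. All of these 8 genes but Atf3 and Arc had the same 3 highest libraries.

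Ptger1 (ENSMUSG00000019464, chromosome 8, 83666833 to 83672753) encodes EP1, a prostaglandin E2 receptor linked to calcium signals through Gq. It stood at 0.927, 0.924 and 1.37 RPKM in females A to C and at 0.985, 1.69 and 1.89 RPKM in males A to C, a mean of 1.30 ± 0.420 RPKM (SD, n = 6). As for Ptger3, the 3 highest libraries were female C, male B and male C.

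Bdkrb2 (ENSMUSG00000021070, chromosome 12, 105563172 to 105593071) encodes the B2 receptor, the constitutive receptor for bradykinin. It stood at 1.35, 1.61 and 2.10 RPKM in females A to C and at 1.69, 1.76 and 2.24 RPKM in males A to C, a mean of 1.79 ± 0.328 RPKM (SD, n = 6). The 3 highest libraries were again female C, male B and male C, although male A and male B lay close together. The deposited length of 1680 bases is shorter than the 3792 bases of M21 coding transcripts. With the longer length the mean would be 0.793 RPKM, but reads in the added bases were not counted, so that value leaves them out. With M21 lengths throughout, Bdkrb2 would come after Ptger1 and Ptger3 in the order of levels, in place of before them.

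Of the 9 receptors with reads, 3 had their highest levels in the same libraries, female C, male B and male C: Ptger1, Ptger3 and Bdkrb2. This set of libraries was picked with the values in view. The share of all genes with the same 3 highest libraries was not computed, so the count is a description only. The same 3 libraries had the highest sums for 3 of the 9 marker lists, those of immediate early genes, of glia and of macrophages. Single genes did not all follow the sums. Among glial genes, Apoe and Mbp were highest in these 3 libraries, but Fabp7 was lowest in male B (240.8 RPKM) and female C (252.3 RPKM). S100b and Sox10 were lowest in male C (44.9 and 2.43 RPKM). Among macrophage genes, C1qb and Cd68 followed the sum, but Ptprc was highest in females A and B and Csf1r lowest in male C. The macrophage sum was 0.732, 0.752 and 1.398 RPKM in females A to C and 1.15, 1.38 and 1.80 RPKM in males A to C, with 0 of 8 genes at a mean of 1 RPKM. The glial sum was 922.5, 897.5 and 1018 RPKM in females A to C and 993.4, 1056 and 1080 RPKM in males A to C. The part of these lists in the receptor levels was not tested. Without female C and male B, the mean of Ptger3 was 1.05 RPKM, against 1.77 ± 1.18 RPKM over all libraries (SD, n = 6), whereas Ptger1 averaged 1.18 and Bdkrb2 1.72 RPKM without them.

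Bdkrb1 (ENSMUSG00000041347, chromosome 12, 105603085 to 105605428) lies 10.0 kb from Bdkrb2 and encodes the B1 receptor, which is known to be induced by inflammation. It had 0 reads in each of the 6 libraries. In a single library 0 reads allow a level of up to 0.0855 RPKM (female B) to 0.141 RPKM (male C), and over all libraries together up to 0.0167 RPKM, from 3 counts and for counting error only. The neighbouring Bdkrb2 had 375 reads in all.

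Hrh1 (ENSMUSG00000053004, chromosome 6, 114397936 to 114483296) encodes the H1 histamine receptor, which signals through Gq and is a target of antihistamines. It stood at 0.198, 0.322 and 0.321 RPKM in females A to C and at 0.390, 0.328 and 0.423 RPKM in males A to C, from 14 to 38 reads a library. Each male library lay above each female library, but male B exceeded female B only in the third decimal. The mean over libraries was 0.330 ± 0.0773 RPKM (SD, n = 6). Its coefficient of variation, 23.4%, lay near the 19.2% that counting error alone would give.

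F2rl1 (ENSMUSG00000021678, chromosome 13, 95511732 to 95525240) encodes PAR2, the receptor cut by trypsin and mast cell tryptase. It had 7, 11 and 13 reads in females A to C and 9, 9 and 14 reads in males A to C. Its level was 0.160, 0.163 and 0.198 RPKM in females A to C and 0.149, 0.136 and 0.342 RPKM in males A to C. Male C was the only library above 0.2 RPKM. Over all libraries together the level was 0.183 RPKM (95% exact Poisson interval 0.141 to 0.234, counting error only).

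Ordered by mean RPKM, the receptors ran Ptgir, Ptgdr, Bdkrb2, Ptger3, Ptger1, Ptger4, Hrh1, F2rl1, Ptger2 and Bdkrb1. Because this order was taken from the same values, it is a description with no test. Of the 9 pairs of neighbours, 4 kept their order in 6 of 6 libraries. These were Ptgir above Ptgdr, by 2.68 ± 0.30 on the log2(RPKM + 0.1) scale, Ptger1 above Ptger4 by 1.64 ± 0.68, Hrh1 above F2rl1 by 0.57 ± 0.32 and Ptger2 above the undetected Bdkrb1 by 1.44 ± 0.44 (SD, n = 6), the last set by the pseudocount. The other pairs changed order between libraries: Ptgdr lay above Bdkrb2 in 5, Bdkrb2 above Ptger3 in 4, Ptger3 above Ptger1 in 3, Ptger4 above Hrh1 in 4 and F2rl1 above Ptger2 in 3 of 6 libraries. Ptgdr, Bdkrb2, Ptger3 and Ptger1 thus formed a middle group whose neighbours did not differ beyond the spread between libraries. At least 1 CPM (reads scaled to library size, with no division by length) in every library was reached by 6 of the 10 receptors, Ptgir, Ptgdr, Ptger1, Ptger3, Bdkrb2 and Ptger4, the last by a small margin at 1.01 CPM in male C. With total counts in place of TMM factors 5 receptors reached it.

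**Figure D2:**
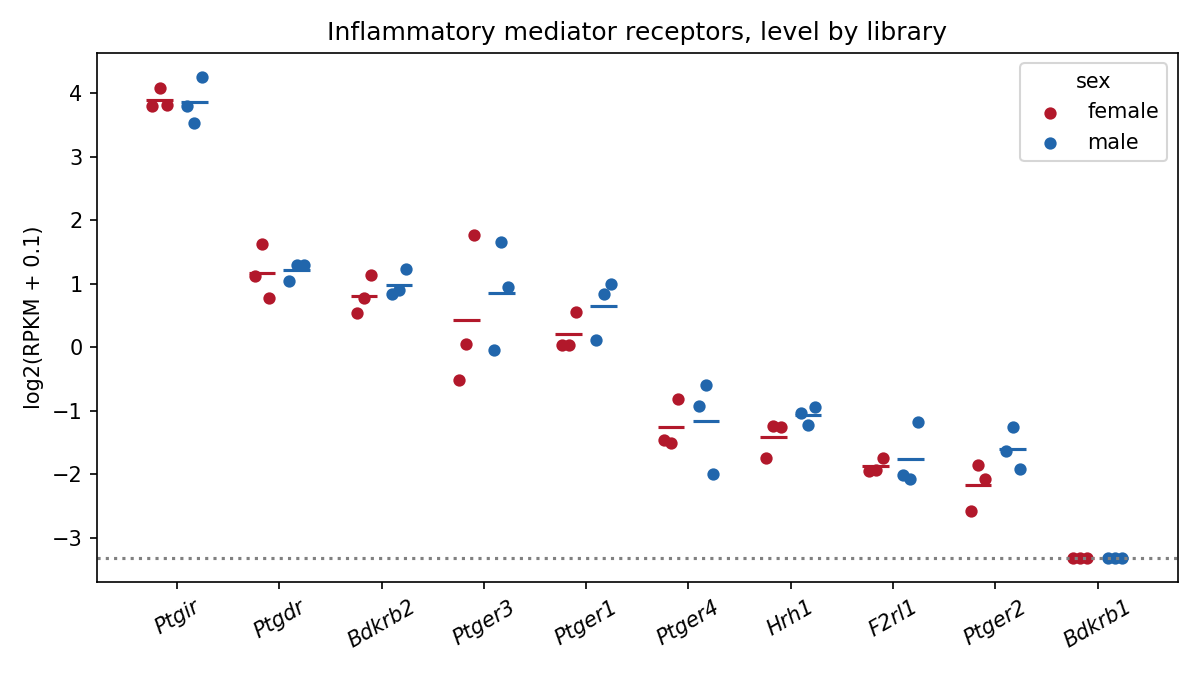
Level of each receptor gene in each library as log2(RPKM + 0.1), in the order of mean RPKM, with female libraries (red) left of male libraries (blue) and a line at each group's mean. Ptgir lies above all other receptors in each library, Bdkrb1 lies at the pseudocount (dotted line, 0 reads), and the points of Ptger3 are the most spread.

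By main coupling, the 4 Gs-coupled prostanoid receptors Ptgir, Ptgdr, Ptger4 and Ptger2 summed to 17.6 ± 2.72 RPKM, the 5 receptors coupled mainly to Gq (Ptger1, Bdkrb1, Bdkrb2, Hrh1 and F2rl1) to 3.61 ± 0.818 RPKM and Gi-coupled Ptger3 to 1.77 ± 1.18 RPKM (SD, n = 6). The Gs group took 67.7% to 83.6% of the summed level in single libraries and the Gq group 12.5% to 18.1%. Most of the Gs sum was Ptgir alone, at a mean of 14.8 RPKM. Ptgdr, Ptger4 and Ptger2 averaged 2.22, 0.354 and 0.181 RPKM, each below the mean Gq sum of 3.61 RPKM. Ptger3 took between 3.07% in female A and 14.2% in female C. The Gs sum was at least 14.7 RPKM in each library, above the highest Gq sum of 4.89 RPKM. Since several of these receptors can use more than 1 G protein, the grouping follows textbook coupling and not a measurement.

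Other genes of the same mediator systems were read from lists of related genes. Among the prostanoid receptors not counted above, none of 3 reached a mean of 1 RPKM: the prostaglandin F receptor gene Ptgfr averaged 0.686 ± 0.372 RPKM (SD, n = 6) and the thromboxane receptor gene Tbxa2r 0.275 ± 0.242 RPKM. Among the protease-activated receptors, F2rl2 (PAR3) averaged 14.3 ± 1.64 RPKM and F2r (PAR1), the thrombin receptor, 7.03 ± 2.57 RPKM (SD, n = 6). F2rl2 exceeded F2rl1 by a ratio between 42.2 in male C and 107 in male A, and F2r exceeded it by 7.85 in male C to 63.4 in female B. The protease gene Klk8 averaged 1.51 ± 0.620 RPKM (SD, n = 6), the only 1 of 8 listed protease genes at 1 RPKM or more. The trypsin genes Prss1 and Prss2 had 0 reads, and the tryptase gene Tpsb2 reached 1.35 RPKM in male B with 0 reads in female A, female B and male C.

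For histamine, the degrading enzyme gene Hnmt averaged 5.27 ± 0.935 RPKM and the synthesis gene Hdc 0.119 ± 0.0622 RPKM (SD, n = 6). The other histamine receptor genes Hrh2, Hrh3 and Hrh4 lay below 0.25 RPKM in each library. Of the mast cell list, which held 8 genes, Kit alone reached a mean of 1 RPKM, and Fcer1a, a chain of the IgE receptor, had 0 reads in all libraries. For kinins, the peptidase gene Mme averaged 2.11 ± 0.593 RPKM (SD, n = 6), while the kininogen genes Kng1 and Kng2 lay at or below 0.255 RPKM in each library.

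Prostanoid synthesis genes were led by Ptges3 at 237 ± 55.6 RPKM, which encodes a prostaglandin E synthase also known as the Hsp90 co-chaperone p23, and by Ptgds, the prostaglandin D synthase, at 24.5 ± 20.4 RPKM (SD, n = 6). Ptgds was 18.0, 18.8 and 10.5 RPKM in females A to C and 64.8, 24.4 and 10.7 RPKM in males A to C, so that male A stood apart. Ptges2 averaged 3.27 ± 0.393 RPKM and the prostaglandin transporter gene Abcc4 1.499 ± 0.2498 RPKM (SD, n = 6). Both cyclooxygenase genes were low, with Ptgs2 at 0.172 ± 0.123 RPKM (SD, n = 6) and Ptgs1 at or below 0.2 RPKM in each library.

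**Figure D3:**
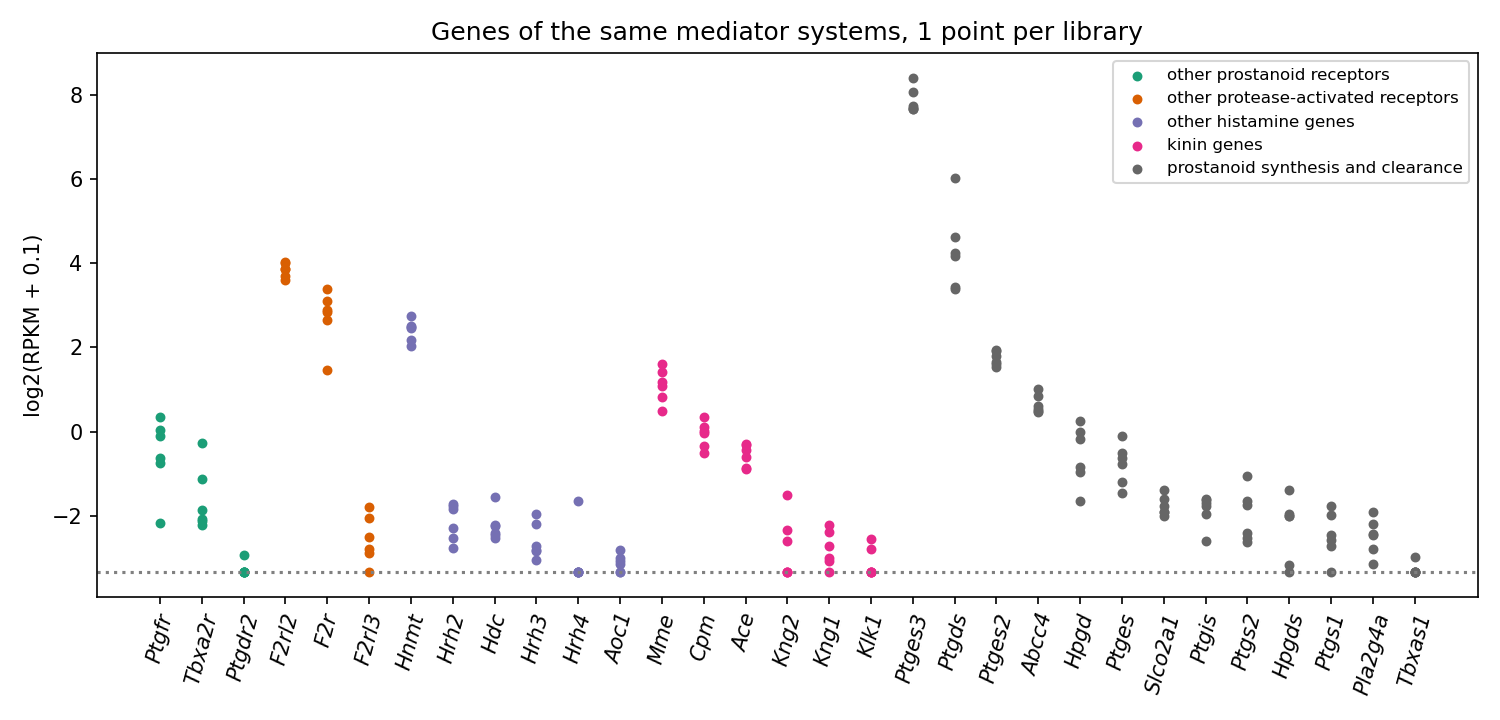
Level of other genes of the prostanoid, protease, histamine and kinin systems as log2(RPKM + 0.1), 1 point per library (n = 6), coloured by list, with the pseudocount as a dotted line. Ptges3 (mean 237 RPKM), Ptgds (24.5 RPKM), F2rl2 (14.3 RPKM) and F2r (7.03 RPKM) lie highest, and the cyclooxygenase genes Ptgs1 and Ptgs2 lie near the line.

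Of 28 listed G protein, cyclase, phospholipase, kinase and arrestin genes, 23 had a mean of 1 RPKM or more. The Gq-class alpha subunit genes Gnaq and Gna14 averaged 188 ± 14.1 and 142 ± 23.4 RPKM, Gna11 28.8 ± 5.21 RPKM and Gnai3, an inhibitory alpha subunit gene, 69.8 ± 8.68 RPKM (SD, n = 6). The catalytic subunit gene of protein kinase A, Prkacb, averaged 90.5 ± 13.2 RPKM, the epsilon isoform of protein kinase C, Prkce, 27.5 ± 1.41 RPKM and Rapgef4, a cyclic AMP sensor gene, 21.1 ± 3.70 RPKM (SD, n = 6). The other alpha subunit genes were Gnai2 at 51.2, Gnai1 at 23.7, Gna12 at 9.54 and Gna13 at 8.72 RPKM, and the other kinase genes Prkca at 36.9 and Prkaca at 33.4 RPKM. Among genes that switch receptors off, the receptor kinase gene Grk2 averaged 15.4 RPKM and the arrestin genes Arrb2 and Arrb1 7.50 and 7.28 RPKM. The highest adenylyl cyclase gene was Adcy5 at 6.19 ± 0.878 RPKM and the highest phospholipase C beta gene Plcb3 at 11.9 ± 3.95 RPKM (SD, n = 6). Adcy2, Adcy1 and Adcy9 followed at 2.24, 1.72 and 1.51 RPKM, and Plcb1 and Plcb4 at 4.94 and 2.07 RPKM. Gnas, the Gs alpha subunit gene, was listed at only 0.155 ± 0.0336 RPKM (SD, n = 6). It shares 13.1% of its exon length with Gm20721 and 8.83% with Nespas, both on the opposite strand. How reads shared between overlapping genes were counted is not stated, so the value is given as listed and may not show the level of its RNA. Of 10 channel genes known as targets of these pathways, 5 reached a mean of 1 RPKM. These were P2rx3 at 125 ± 23.7, Scn10a at 119 ± 16.8, Scn11a at 115 ± 16.9, Trpv1 at 33.9 ± 9.45 and Cacna1h at 1.20 ± 0.314 RPKM (SD, n = 6). Trpv1, the capsaicin receptor gene, was highest in male C at 52.2 RPKM, against 25.8 to 34.3 RPKM in the other libraries.

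The design also allowed female and male embryos to be compared. None of the 9 receptors tested was called by edgeR quasi-likelihood test after Benjamini-Hochberg adjustment over 15026 genes, of which 5 (0.0333%) were called. No receptor had an unadjusted p below 0.05, no receptor was called by DESeq2 or limma-voom, and each edgeR adjusted p rounded to 1. Bdkrb1 had no reads and was not tested. Ptgir averaged 14.8 ± 1.67 RPKM in female and 14.8 ± 3.86 RPKM in male libraries (SD, n = 3 each), a log2 difference of 0.01 (female over male, 95% interval -0.46 to 0.48). For Ptgdr it was 0.01 (-0.62 to 0.63), so that neither interval reached a 2-fold difference. The furthest from 0 was Ptger2, with 0.128 ± 0.0552 RPKM in female and 0.235 ± 0.0770 RPKM in male libraries (SD, n = 3 each), at -0.86 (-1.98 to 0.27, edgeR unadjusted p = 0.120), followed by Ptger1 at -0.50 (-1.19 to 0.20, edgeR unadjusted p = 0.143). Ptger3 had the widest interval, at -0.24 (-1.62 to 1.14), and both of its ends lie beyond a 2-fold difference. Bdkrb2 (-0.16), F2rl1 (-0.21) and Ptger4 (-0.23) also had intervals that include 0.

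Of the 9 tested receptors 7 had a negative fold change. Their median was -0.23, against -0.005 over all genes tested. The summed nociceptor genes were also lower in each female library (1754 to 2087 RPKM) than in each male library (2105 to 2356 RPKM). Calca made the largest part of this sum, with means of 882.4 RPKM in female and 1065 RPKM in male libraries. Isl1 (176.2 against 169.7 RPKM), Scn11a (118.1 against 112.1) and Runx1 (7.98 against 7.43) had higher female means. The other genes of the list had higher male means. The part of these genes in the receptor values was not tested. Female and male libraries did not overlap in 1 of the 9, Hrh1 (-0.42, interval -1.24 to 0.40, edgeR unadjusted p = 0.278), beside 5.70% of all genes tested. Within the related lists no gene was called in either direction, among 27 of 28 signalling genes, 8 of 10 channel genes, 11 of 13 synthesis and clearance genes, 3 of 6 histamine genes, 3 of 7 kinin genes, 2 of 3 protease-activated receptors, 1 of 8 proteases and 1 of 3 prostanoid receptors that could be tested. Of the kinin genes, Mme had an unadjusted edgeR p of 0.0356, with a log2 fold change of 0.61 and an adjusted p of 1. With 3 libraries per sex, p-values weigh the difference between the sexes against the spread between these libraries. The male libraries also differ in the number of embryos pooled.

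**Figure D4:**
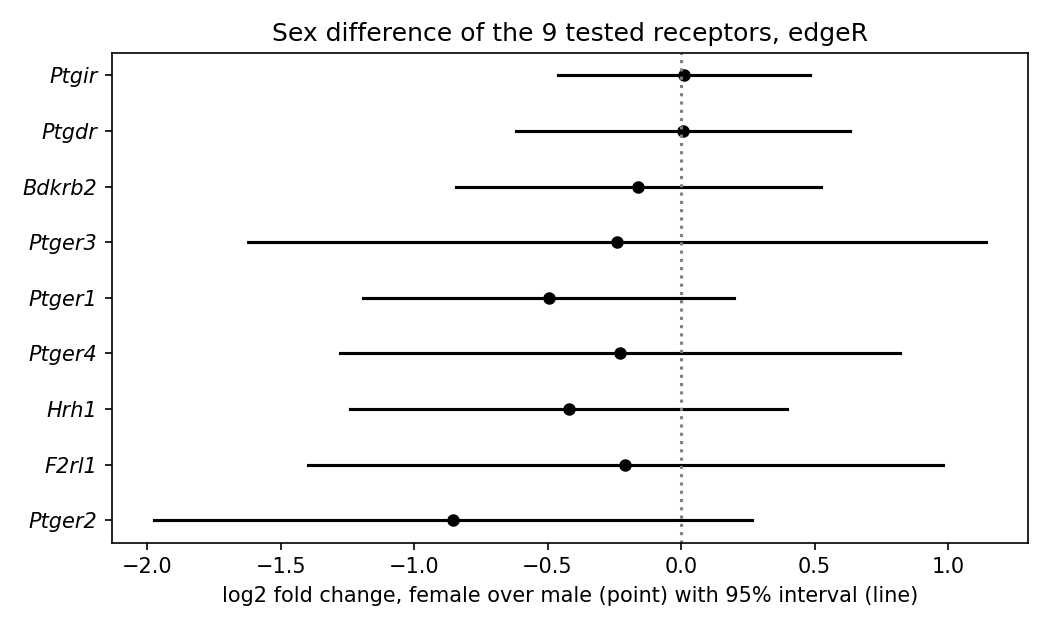
Log2 fold change, female over male, of the 9 tested receptor genes (points) with 95% intervals from the edgeR fit (lines), n = 3 libraries per sex, ordered by mean RPKM from the top. The interval of each gene includes 0 (dotted line), from the narrowest for Ptgir (-0.46 to 0.48) to the widest for Ptger3 (-1.62 to 1.14).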

How the data were processed

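For each of 6 libraries the authors deposited 1 table with the exons and length of every gene, its count of reads, its CPM and its RPKM. Counting used featureCounts 1.4.5 (Subread) and build GRCm38.p2, per the submitters' processing notes. The sources used here do not give the aligner, the strand setting or the annotation release. Per the labels, cDNA was amplified (SMARTer Ultra Low Input kit) and then again by PCR, so reads are not independent molecules, and intervals cover counting error only. The deposited CPM and RPKM values equal the count scaled to the library total and length, which was checked for every gene. Symbols came from GENCODE M21 (97.26% of identifiers).

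RPKM was recomputed with TMM factors from edgeR 4.0.16 (R 4.3.3). Sex was tested on the raw counts with edgeR's quasi-likelihood test after filterByExpr, with Benjamini-Hochberg adjustment over all genes tested at 0.05; DESeq2 1.42.0, limma-voom (limma 3.58.1), other factors and filters, the letter as a block, pooled embryos as a covariate and each library left out were alternatives. Intervals are at the 95% level, and a count of 0 allows 3 counts. The edgeR step was first checked on simulated counts with 200 genes of known change. The receptors and lists were chosen with earlier results of these data known. By rule, the text names the 10 receptors, the genes of the related lists at a mean of 1 RPKM or more, genes whose exons overlap a receptor, and the 3 genes closest to the highest receptor in pattern; items withheld are not reported here. Further list members were picked with their values in view, as were the alternatives without female C and male B and with M21 lengths. The same holds for the set of female C, male B and male C.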

Additional observations from a re-analysis of the deposited data

Results flagged for a closer look

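A library stood far from the others of the 6 (a gap, as a share of the range, above Dixon's 95% critical value) for 5 of 47 receptor and related genes, where chance flags about 1 in 20. F2rl1 was highest in male C, with a ratio of 0.700, and rests there on 14 reads. Trpv1 and P2rx3 were also highest in male C, with ratios of 0.678 and 0.656. Ptgds was highest in male A, with a ratio of 0.743. Plcb4 was highest in female A, with a ratio of 0.674.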

How the results depend on the processing

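No receptor was called between the sexes under any alternative run, and the lowest adjusted p was 0.782, from edgeR without female C, for Ptger3 (log2 fold change -1.31, unadjusted p 0.0280) and Ptger1 (-0.71, unadjusted p 0.0621). Without male A, Ptger1 was at -0.73, with an unadjusted edgeR p of 0.0348 and an adjusted p of 0.943. Over all genes, edgeR called 12 genes with no filter on low counts, against 5 with it, and the cause was not tested; leaving out each library in turn gave 5 each time. The letter as a replicate block left 5 genes called over all genes and 0 receptors; libraries of the same letter did not deviate together (correlations of 0.284, -0.294 and -0.077 for A, B and C). With 1 RPKM in place of 1 CPM as the limit, 3 receptors passed in each library, against 6, since CPM does not divide by length. Signs of fold changes near 0 depended on the choices: Ptgdr was at -0.0009 with RLE factors, -0.0083 with no filter, -0.0003 with DESeq2, -0.0272 with limma-voom and -0.0306 with the block, and Ptgir was at -0.0004 with RLE factors, -0.0003 with DESeq2 and -0.0989 without female C and male B, an alternative chosen after seeing the data. Leaving out each library in turn gave log2 fold changes of -0.2708 to 0.1937 for Ptgdr, -0.1446 to 0.2307 for Ptgir, -1.3128 to 0.2968 for Ptger3, -0.5876 to 0.1633 for Ptger4 and -0.4487 to 0.2866 for F2rl1; Ptger3 was lowest without female C and highest without male B, and F2rl1 changed sign only without male C. The number of neighbouring receptors in 1 order in every library stayed between 3 and 5, against 4. Counting error alone would give a coefficient of variation of 31.6% for Ptger2, 31.7% for F2rl1 and 19.2% for Hrh1, against 46.3%, 40.0% and 23.4% over the libraries.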
